A study of Danio rerio with 82 samples.

Results

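Zebrafish (Danio rerio) oocytes of stage III were compared with oocytes of stage I, the net difference over oocyte growth before maturation. The comparison took 2 poly(A) RNA-seq libraries, 1 per stage, from a series of 82 samples on the chromatin and transcripts of gametes and embryos. Both came from the wild-type Tu strain. The labels call the stage I cells G1-phase oocytes and the stage III cells prophase I oocytes, and neither group carried an added allele or treatment. Adult ovaries were dissected, oocytes were picked by morphology, and follicle cells were detached gently but not necessarily in full, per the labels' protocols. The age and number of females are not given in the sources used here. Loci were joined between the libraries by symbol and position, and the 14522 of 28405 loci that averaged 1 FPKM or more over both libraries were kept. FPKM is the number of fragments scaled to transcript length and to the number of mapped fragments, which the authors deposited together with confidence bounds on either side. Values of the stage II and stage IV libraries are given as levels beside the comparison, which does not use them.

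Stage I oocytes of the zebrafish are small, previtellogenic cells in primary growth. Stage II oocytes fill with cortical alveoli, and stage III oocytes take up vitellogenin, the yolk precursor made in the liver, while they are still arrested in prophase. A follicle layer of granulosa cells, with theca cells outside it, surrounds the growing oocyte and makes steroid hormones. During growth the oocyte also stores the mRNAs and the mitochondria that the early embryo will use, and stored mRNAs are often kept with short poly(A) tails.

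The stage I library summed to 772948 FPKM and the stage III library to 805766. The widths of the bounds correspond to at least 6260349 counted fragments at stage I and 6572489 at stage III. There was 1 library a side, so no p-value, SD or standard error is given, and higher and lower describe these libraries. The bounds belong to single libraries and show no spread between fish. The labelled cell type was checked against 17 oocyte genes: 16 were in the files, 14 passed the minimum, and the genes for the oocyte factor Figla and the linker histone H1M (figla and h1m) were listed at 0 in both libraries. Both were at 0 at stages II and IV too, and an exact 0 in such a file can be a failed estimate. The gene buc, which organizes the Balbiani body of the young oocyte, stood at 749 (bounds 719 to 779) FPKM at stage I and 728 (bounds 699 to 756) at stage III, with overlapping bounds.

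A difference is stage III minus stage I on the log2(FPKM + 1) scale. Where 2 FPKM values of a gene are given without a stage, the first is stage I and the second stage III. This log scale understates the difference of genes with low values. A locus under 1 FPKM in 1 library passes the minimum only through the other, which fixes the direction of its difference. Over all loci compared the median difference was 0.11, with quartiles of -0.36 and 0.56. A locus is called higher or lower here when the difference reached 1 in size, which is 2-fold on this scale. By this rule 1514 loci (10.4% of those compared) were higher at stage III and 999 (6.88%) were lower, while 12009 did neither. At 4-fold 234 loci (1.61%) were higher and 129 (0.888%) lower. In 1366 (9.41%) of the loci compared the value was 2-fold higher with bounds apart, and in 914 (6.29%) it was 2-fold lower with bounds apart. Bounds apart were common: 7767 loci (53.5%) had them, and 5487 of these did not reach 2-fold.

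The counts differed with the level of the transcript. Among the 3528 loci with a mean of 3 to 10 FPKM, 15.4% were higher and 8.11% lower at stage III. Among the 382 loci with a mean of 300 FPKM or more, 5.24% were higher and 8.90% lower. The median level of the higher loci was 2.57 FPKM at stage I and 9.94 at stage III, which their selection fixes. In the libraries that the comparison did not use, the same loci had medians of 3.35 FPKM at stage II and 0.728 at stage IV. The lower loci had medians of 15.7, 12.2, 5.24 and 2.56 FPKM at stages I to IV. Over all loci compared the medians were 11.7, 14.3, 12.3 and 5.34 FPKM, so a lower median at stage IV was not particular to the called loci. In stage IV 712 of the 1514 higher and 667 of the 999 lower loci stood at 1 FPKM or more, a count added after the data were seen. The same count over all loci compared is not given here. At the edges of the rules, lpar6a was just past 2-fold higher with a log2 difference of 1.00015 and abcb11a just short of it with 0.999706. A locus at a mean of 1.00 FPKM, BX005223.3, was kept, and vax1, at a mean of 0.99965 FPKM, was left out.

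**Figure D1:**
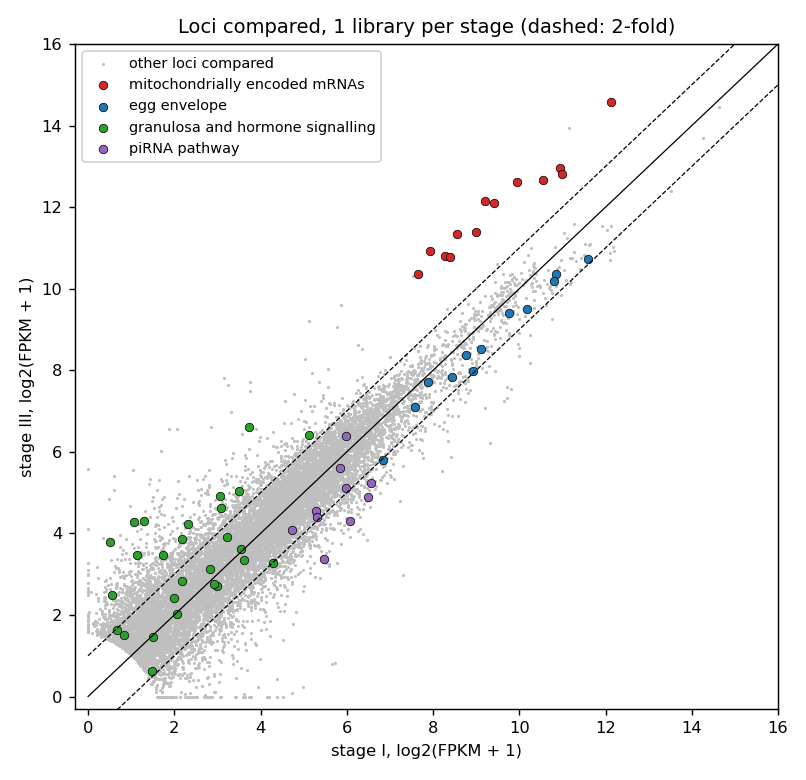
Each point is 1 of the 14522 loci, with its stage I level on the x axis and its stage III level on the y axis, both as log2(FPKM + 1), with the line of equality and dashed lines at 2-fold; 4 gene lists are coloured as in the legend. The 13 mitochondrially encoded mRNAs lie above the upper dashed line, and the 12 egg envelope genes lie below the line of equality.

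**Figure D2:**
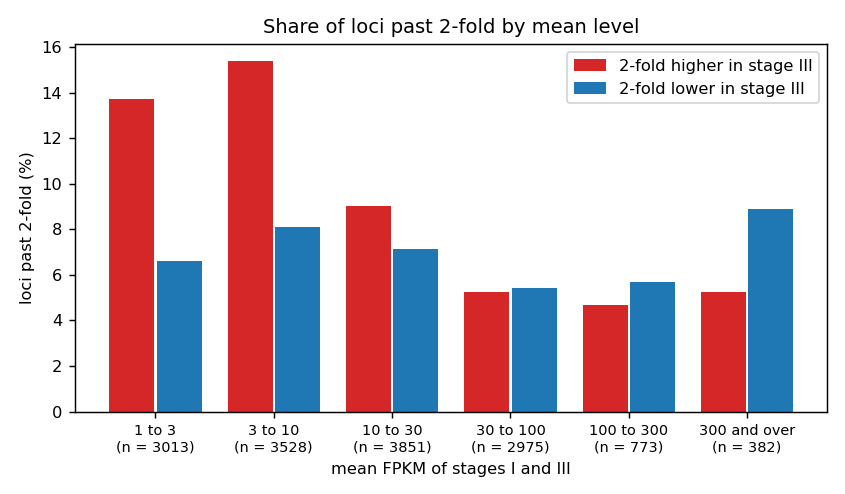
Bars give the percentage of loci at least 2-fold higher or lower at stage III, by the mean FPKM of both libraries, with the number of loci under each pair. Higher loci outnumber lower ones below a mean of 30 FPKM and not above it.

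The transcripts of the mitochondrial genome were all higher at stage III. The circular genome encodes 13 subunits of the respiratory chain and ATP synthase, and 13 of 13 mRNAs passed the 2-fold rule, with a median log2 difference of 2.54 against 0.11 over all loci. Together they made up 1.84% of the summed FPKM at stage I and 9.14% at stage III. These shares lean on the short mt-atp8 locus, which alone held 4488 of their 14206 FPKM at stage I and 24617 of 73612 at stage III. The cytochrome b mRNA mt-cyb stood at 592 (bounds 573 to 610.4) FPKM at stage I and 4524 (bounds 4468 to 4581) at stage III, so the bounds lay far apart. Stage II, at 1833 FPKM, lay between them, and stage IV stood at 2597. The complex I subunit mRNA mt-nd2 had the largest ratio of stage III to stage I, 7.97, from 242 (bounds 230.4 to 255) to 1934 (bounds 1898 to 1969.9) FPKM. The oxidase subunit mRNA mt-co2 had the smallest, 3.54, from 2042 (bounds 1995 to 2088) to 7229.7 (bounds 7136 to 7323) FPKM.

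The cytochrome c oxidase subunits differed least within this group. The ratio of mt-co1 was 4.10 and that of mt-co3 4.34. The 7 complex I subunits ranged from 5.24 (mt-nd6) to 7.97 (mt-nd2), with mt-nd1 at 6.89. The mRNA mt-nd6, the only one read from the other strand of the mitochondrial genome, stood at 336 (bounds 309 to 363) FPKM at stage I and 1761 (bounds 1672 to 1850.5) at stage III. The mt-atp8 locus had the highest FPKM of the stage III library, at 24617 (bounds 23167 to 26068) against 4488 (bounds 4041 to 4936) at stage I. This locus (8894 to 9058) is shorter than the 200 bases required of the genes named as furthest apart. FPKM is scaled to length, so the level of so short a locus is uncertain. The mRNAs mt-atp8 and mt-atp6, and likewise mt-nd4l and mt-nd4, overlap on the genome, so their reads can be divided in more than 1 way.

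The nuclear genes of mitochondria did not differ to this extent. Over all loci 10.4% were higher and 6.88% lower, with a median log2 difference of 0.11. Of 71 nuclear genes of oxidative phosphorylation that passed the minimum, 2 were higher (2.82%) and 1 lower (1.41%). Their median was 0.39, and 61 lay above 0. The higher ones were the oxidase subunit genes cox6b1, at 7.53 and 39.39 FPKM at stages I and III, and cox6a2, at 5.34 and 12.8. The lower one, ndufs8b of complex I, stood at 29.7 and 9.81. Of 15 genes of mitochondrial replication, transcription and dynamics, 1 was higher (6.67%) and 2 were lower (13.3%), with a median of 0.18. The higher one, ssbp1, which encodes the single-strand binding protein of mitochondrial DNA, stood at 34.46 and 71.2 FPKM, a log2 difference of 1.03. The fission GTPase gene dnm1l, at 90.5 and 177, did not reach 2-fold. The mitochondrial thymidine kinase gene tk2 was lower, at 44.6 and 15.9 FPKM, and so was nrf1, a transcription factor of respiratory genes, at 49.2 and 22.9.

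The other most abundant transcripts went both ways. In both libraries rps20, a gene of the small ribosomal subunit, and crp2 were among the highest, with rps20 at 25433 (bounds 23062 to 27804) FPKM at stage I and 22582 (bounds 20463 to 24701) at stage III. The cytoplasmic actin gene actb1 was lower, at 4725 (bounds 4542 to 4908) and 1953 (bounds 1877 to 2029) FPKM, whereas its paralog actb2 stood at 2472 and 3087. The phc2b locus on chromosome 1 (774782 to 775204), of the polycomb family, stood at 11648 (bounds 11522 to 11774) and 5415 (bounds 5333 to 5497) FPKM, with a log2 difference of -1.10, and a second phc2b locus on chromosome 6 stood at 9.65 and 4.81. Among the 5 most abundant transcripts of stage III was MFAP4 (8 of 14), a member of a family of microfibril-associated genes on chromosome 1 (59741975 to 59743179). It stood at 2286 (bounds 2255 to 2316) FPKM at stage I, 1434 at stage II, 15587 (bounds 15509 to 15665) at stage III and 16.3 at stage IV. Its neighbour MFAP4 (12 of 14), 59728646 to 59729564, stood at 185 and 1264 FPKM, while MFAP4 (6 of 14) stood at 9.41 and 7.23. The copies are alike in sequence, so the division of reads among them is uncertain.

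Among loci with bounds that do not overlap and a symbol that is not a clone name, 15 genes lay furthest above their stage I level. The first was rprmb (chromosome 6, 13243108 to 13244197), a relative of the mammalian cell cycle arrest gene Reprimo. It stood at 0.527 (bounds 0 to 1.06) FPKM at stage I, 0.696 at stage II, 41.7 (bounds 36.9 to 46.5) at stage III and was listed at 0 at stage IV. The gene asb11 (chromosome 9, 31397975 to 31404555), for a substrate adaptor of ubiquitin ligases, stood at 2.7 (bounds 1.76 to 3.63) and 93.1 (bounds 87.5 to 98.6) FPKM at stages I and III. The gene cmah (chromosome 4, 2091681 to 2111243) encodes the hydroxylase that converts one sialic acid into another, and stood at 7.96 (bounds 6.8 to 9.12) and 223 (bounds 216 to 229) FPKM.

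Several of the 15 encode proteins of the cell surface or the matrix. The gap junction gene cx34.5 (chromosome 20, 40788872 to 40791948) stood at 12.6 (bounds 10.6 to 14.6) FPKM at stage I and 208 (bounds 200.0 to 216) at stage III, with 28.5 at stage II and 0.623 at stage IV. The collagenase gene mmp13a (chromosome 10, 39959934 to 39979810) stood at 57.6 (bounds 53.5 to 61.8) and 771 (bounds 745 to 797) FPKM, with 51.2 at stage II and 0.89 at stage IV. The basement membrane gene tinagl1 stood at 6.26 and 96.4 FPKM, the GABA transporter gene slc6a11a at 1.69 and 39.3, and CSMD3 (3 of 3), a gene for a large protein with complement-like domains, at 31.7 and 311. The membrane-bending actin regulator BAIAP2 (1 of 3) stood at 1.07 (bounds 0.135 to 2) and 46.3 (bounds 31.9 to 60.7) FPKM, and the calcium-binding gene s100a11 at 3.19 (bounds 0.438 to 5.94) and 92.6 (bounds 79.6 to 106).

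The remaining genes of the 15 include regulators and enzymes of steroid and lipid metabolism. The gene hsd3b1 (chromosome 9, 22227790 to 22233809), for a dehydrogenase that makes progesterone from pregnenolone, stood at 9.02 (bounds 7.48 to 10.6) and 125 (bounds 119 to 131) FPKM. The apolipoprotein E gene apoeb (chromosome 16, 26200037 to 26202754) stood at 53.5 (bounds 49.2 to 57.9) and 531 (bounds 509 to 553) FPKM. The nuclear receptor gene nr5a2, whose mammalian product drives genes of steroid synthesis in granulosa cells, stood at 0.427 (bounds 0.18 to 0.674) and 12.8 (bounds 11.5 to 14.2) FPKM. The zinc finger factor gene gata5 stood at 1.83 and 28.8 FPKM, and comta, which encodes a methyltransferase of catechols and catechol estrogens, at 1.78 and 26.9. In stage IV 14 of the 15 were under 1 FPKM, the exception being CSMD3 (3 of 3) at 1.61, and at stage II 13 of the 15 were within 2-fold of their stage I level.

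The 15 genes furthest below their stage I level formed a more varied group. The ribonucleotide reductase gene rrm2 (chromosome 20, 29518377 to 29525282), for the enzyme that makes deoxyribonucleotides, stood at 49.1 (bounds 45.2 to 53) FPKM at stage I and 0.747 (bounds 0 to 1.55) at stage III. It stood at 28.2 at stage II and 183 at stage IV, so stage III was the lowest of the libraries. A second rrm2 locus on chromosome 19 stood at 124 (bounds 118 to 129.6) and 97.9 (bounds 92.6 to 103) FPKM, so the low value belonged to 1 of the loci, and the division of reads between them is uncertain. Stage III was the lowest library as well for C7 (2 of 2), a complement gene (chromosome 21, 19729380 to 19743166), at 25.7, 32.5, 0.0686 and 22 FPKM at stages I to IV. So it was for tbl2, a WD-repeat gene, at 11.3, 14.7, 0.0522 and 16.8 at its locus on chromosome 10 (34208824 to 34221758). A second tbl2 locus nearby (34282892 to 34293825) stood at 27.9 and 42.9 FPKM at stages I and III, the other direction.

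In 6 of the 15 the stage III value was listed at 0. They were b3galtlb, for a glucosyltransferase of the secretory pathway, at 17.1 (bounds 13.4 to 20.7) FPKM at stage I and 14.6 at stage IV, and the small membrane protein gene SMIM13 (2 of 2), at 16.6 (bounds 7.96 to 25.3) at stage I and 210.3 at stage IV. They were also the Golgi transport gene GOLT1A, at 7.36 FPKM at stage I and 25.3 at stage IV, the pannexin channel gene panx3, at 6.18 at stage I and 9.39 at stage IV, and 2 more that were listed at 0 at stage IV too. These were the urea transporter gene slc14a2, at 12.5 FPKM at stage I, and MYO18B (3 of 4), an unconventional myosin gene, at 9.62 (bounds 1.76 to 17.5). An exact 0 in such a file can be a failed estimate, so no ratio is given for these genes.

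Of the remaining genes, f2, f5 and vtg5 are known from the liver or the blood plasma. The prothrombin gene f2 (chromosome 7, 40142973 to 40152260) stood at 158 (bounds 149 to 166) FPKM at stage I, 9.99 at stage II and 6.89 (bounds 4.29 to 9.48) at stage III. The coagulation factor V gene f5 stood at 21.9 (bounds 20.7 to 23) and 1.61 (bounds 1.28 to 1.93) FPKM at stages I and III, and the vitellogenin gene vtg5 at 6.53 (bounds 5.22 to 7.84) and 0.0781 (bounds 0 to 0.475). The matricellular gene postnb, for periostin, stood at 14.9 and 0.886 FPKM, the urotensin gene uts1 at 10.7 and 0.635, and the carboxypeptidase gene cpo at 6.74 and 0.0787. In these 6 genes the bounds of the libraries did not overlap, which their selection required.

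**Figure D3:**
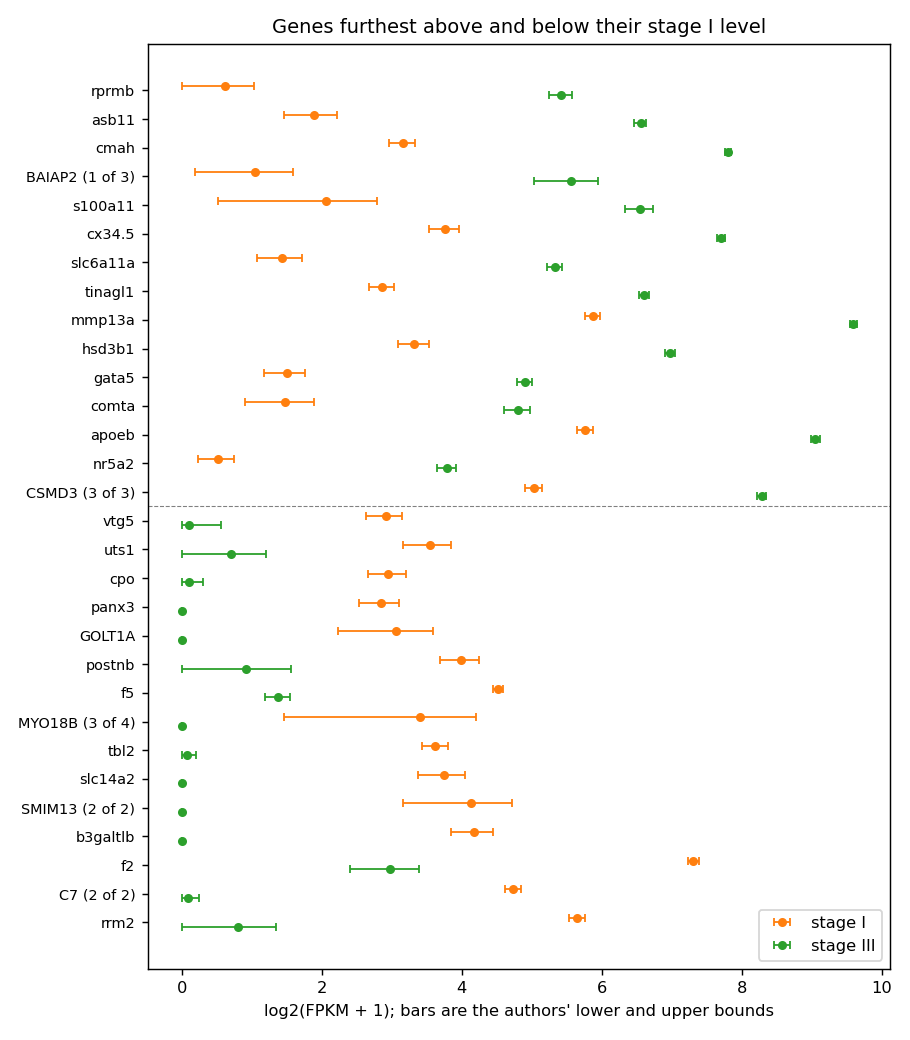
The x axis gives the level of the 15 highest and the 15 lowest genes, above and below the dashed line, as log2(FPKM + 1) at stage I (orange) and stage III (green), with the authors' lower and upper bounds as bars. For 6 of the lower genes the stage III point lies at 0 with no bar.

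Genes of the follicle were among those with the largest differences. Of 27 granulosa and hormone signalling genes that passed the minimum, 13 were higher and 1 was lower, with a median log2 difference of 0.95. That is 48.1% higher, against 10.4% over all loci compared, 13.7% at a mean of 1 to 3 FPKM and 15.4% at 3 to 10. Members such as nr5a2 and fshr, under 1 FPKM at stage I, passed the minimum only through stage III and could only differ upwards. The luteinizing hormone receptor gene lhcgr (chromosome 13, 48032594 to 48078036) stood at 1.08 (bounds 0.674 to 1.49) FPKM at stage I and 18.3 (bounds 16.7 to 20) at stage III, and fshr, for the receptor of follicle-stimulating hormone, stood at 0.469 (bounds 0.166 to 0.771) and 4.59 (bounds 3.65 to 5.53). The gonadal growth factor gene igf3 stood at 1.45 (bounds 0.269 to 2.63) and 18.8 (bounds 15.1 to 22.4) FPKM. The nuclear receptor gene nr5a1a, which encodes a regulator of steroidogenic genes, stood at 12.3 (bounds 9.24 to 15.3) and 97.2 (bounds 88.7 to 106). None of these 4 had overlapping bounds, which the selection required of lhcgr and igf3. Over all loci compared 53.5% had bounds apart.

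Of the inhibin and activin subunit genes, inhbaa was also higher, at 1.2 and 10.1 FPKM, and so was inha, at 34.1 and 84.5. The subunit genes inhbab, at 0.0661 and 0.0316 FPKM, and inhbb, at 0.235 and 0.0679, did not pass the minimum. The aromatase gene cyp19a1a, whose product makes estradiol, stood at 10.3 (bounds 8.73 to 11.8) and 32.1 (bounds 29.4 to 34.8) FPKM, with 34.3 at stage II. The steroid receptor genes ar and esr2b stood at 3.95 and 2.34 FPKM at stage I and at 17.7 and 10 at stage III. The gonadal transcription factor gene gata4 stood at 3.55 and 13.7. The teleost granulosa gene gsdf went the other way, at 18.4 (bounds 15.9 to 20.9) FPKM at stage I and 8.66 (bounds 7.08 to 10.2) at stage III. The ovarian factor gene foxl2, at 2.99 and 4.36, and the insulin receptor gene insra, at 10.6 and 11.3, had overlapping bounds. The gene for anti-Mullerian hormone, amh, did not pass the minimum, at 1.11 and 0.789 FPKM.

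Steroid synthesis genes were divided. The 16 that passed the minimum had a median log2 difference of -0.10. Of them 3 were higher (18.75%, against 10.4% over all loci) and 0 lower. Besides hsd3b1 these were star, for the protein that carries cholesterol into mitochondria, at 0.715 (bounds 0.146 to 1.28) and 10.2 (bounds 8.05 to 12.4) FPKM, and the electron donor gene fdxr, at 5.38 and 22.5. The other members of this list did not reach 2-fold. The aromatase gene cyp19a1a, given above, is not in it. The side-chain cleavage gene cyp11a1 stood at 224 (bounds 214 to 234) and 205 (bounds 195 to 215) FPKM, cyp17a1 at 74.7 and 55.4, and hsd3b2, a paralog of hsd3b1, at 95.2 and 53.4. Among 23 progestin receptor and ovulation genes 9 were higher (39.1%) and 2 lower (8.70%), with a median of 0.52. Over all loci the shares were 10.4% and 6.88%. The nuclear progestin receptor gene pgr (chromosome 18, 40220076 to 40238456) stood at 5.59 (bounds 4.37 to 6.8) and 41.6 (bounds 38.2 to 44.9) FPKM, and the membrane receptor gene paqr5a at 12.2 and 34.48. The plasminogen activator genes differed, with plaua at 0.937 and 7.36 FPKM and plat at 9.2 and 0.738. The growth factor receptor gene egfra stood at 2.73 and 9.16 and the metalloprotease gene adamts8a at 4.92 and 0.657.

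The summed level of the granulosa list was 171 FPKM at stage I, 209.9 at stage II, 456 at stage III and 46.5 at stage IV, over the 34 members found. In a bulk library a larger share of follicle cells and more RNA per follicle cell cannot be told apart. The part of attached follicle cells in these differences was not tested.

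Markers of other cells went both ways. Of 27 leukocyte genes 9 were higher (33.3%, against 10.4% over all loci) and 0 lower, with a median log2 difference of 0.48 and a summed level of 355 and 492 FPKM at stages I and III over the 33 found. The myeloid transcription factor gene spi1b stood at 5.05 and 18.5 FPKM, the granulin gene grn1 at 32.2 and 106, the lysozyme gene lygl1 at 17.4 and 48.8, and the actin bundling gene lcp1 at 6.28 and 18.1. The pan-leukocyte gene ptprc stood at 4.35 and 9.89, while the antigen presentation gene cd74a stood at 64.6 and 52.7. The lymphocyte markers cd8a, rag1 and lck did not pass the minimum.

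Stromal, vascular and epithelial genes had higher and lower members. Over all loci 10.4% were higher and 6.88% lower. The shares were 7.14% and 14.3% for stroma, 10% and 10% for endothelium, 25% and 12.5% for red blood cells and 20% and 20% for epithelium. Those of endothelium lay near the shares over all loci. Of 28 smooth muscle and stroma genes 2 were higher and 4 lower, with summed levels of 1786 and 1922 FPKM over the 34 found, of which thy1 alone held 1274 and 1372. The type I collagen gene col1a2 stood at 7.72 and 20.6 FPKM, and the sister gene col1a1b at 9.46 and 21.2, whereas the pericyte receptor gene pdgfrb stood at 20.8 (bounds 19.2 to 22.4) and 3.25 (bounds 2.64 to 3.86), and the desmin gene desmb at 9.11 and 1.02. Of 20 endothelial genes 2 were higher and 2 lower, with summed levels of 58 and 54.5 FPKM over the 24 found, and the endothelial cadherin gene cdh5 stood at 2.8 and 3.26. The higher ones were lmo2, at 0.263 and 2.25 FPKM, and tie1, at 1.48 and 4.66, and the lower ones vwf, at 5.57 and 2.03, and aqp1a.1, at 11.8 and 4.03. Of 8 red blood cell genes 2 were higher and 1 lower, with summed levels of 59.8 and 76.4 FPKM over the 15 found. The globin gene hbaa1 stood at 20.7 (bounds 16.6 to 24.8) and 19.3 (bounds 15.3 to 23.2) FPKM, and the globin genes hbae1, hbbe2 and hbbe3 were listed at 0 in both libraries. The carbonic anhydrase gene cahz stood at 2.39 and 12.7 FPKM, the transferrin receptor gene tfr1a at 9.9 and 22, and the nucleotidase gene nt5c2l1 at 5.59 and 1.54. Of 15 epithelial genes 3 were higher and 3 lower, with summed levels of 1899 and 1422 FPKM over the 26 found. The keratin genes krt8 and krt18 stood at 130.4 and 121 FPKM at stage I and at 152 and 120.2 at stage III. The cell adhesion gene epcam was lower, at 1216 and 462 FPKM, as was the protease inhibitor gene spint1a, at 74.7 and 21.3, and the E-cadherin gene cdh1 was higher, at 36.9 and 138. The desmocollin gene dsc2l stood at 2.46 and 9.85 FPKM and the annexin gene anxa2a at 31.3 and 92.7.

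Genes of liver plasma proteins went both ways. Of 15 that passed the minimum, 5 were higher (33.3%) and 9 lower (60%), against 10.4% and 6.88% over all loci. The median log2 difference was -2.29 and became 1.18 over members with a mean of at least 10 FPKM. Members such as vtg5 and fabp10a, under 1 FPKM at stage III, passed the minimum only through stage I, which fixed their direction. The summed level over the 39 found was 326 FPKM at stage I and 652 at stage III, of which apoeb held 531 at stage III. The vitellogenin genes made up 6 of the 9 lower ones. The most abundant, vtg1, stood at 22.6 (bounds 20.1 to 25) FPKM at stage I and 3.83 (bounds 2.3 to 5.35) at stage III, and was listed at 0 at stage II. The liver fatty acid binding gene fabp10a stood at 5.94 (bounds 1.8 to 10.1) FPKM at stage I and was listed at 0 at stages II and III. Next to apoeb, the higher ones were c3a, f10, apoc1l and tfa, with f10, for coagulation factor X, at 10.9 and 41 FPKM. Vitellogenin genes are close copies of each other, so the value of a single copy is uncertain. The part of other cell types in the differences above was not tested.

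**Figure D4:**
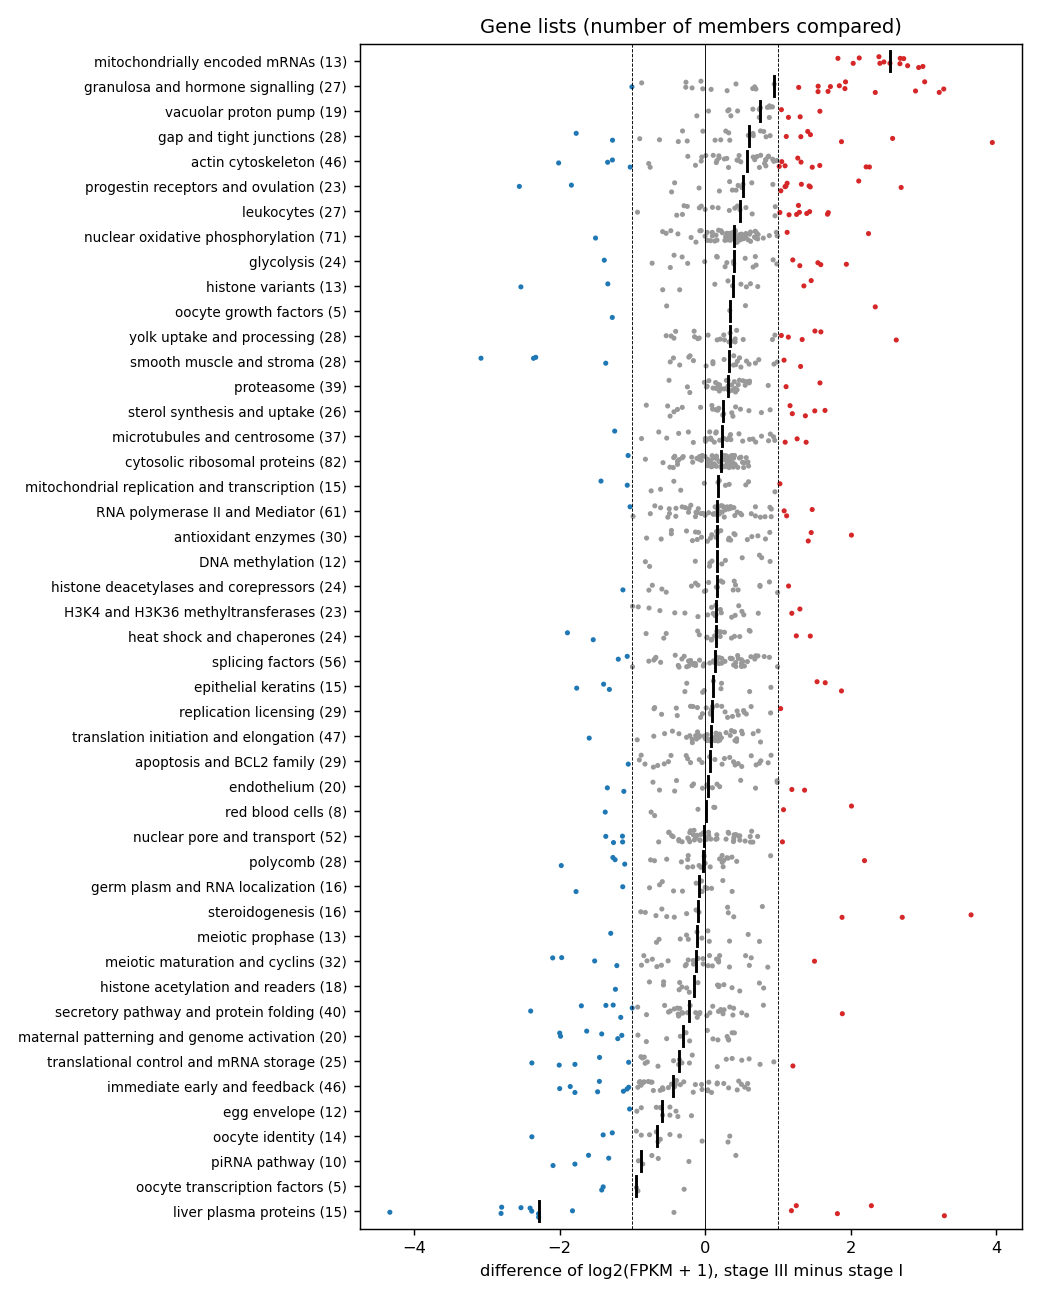
Each row is a gene list with its number of members compared, and each point is the log2(FPKM + 1) difference of a member, stage III minus stage I, in red at 2-fold higher and in blue at 2-fold lower, with a bar at the list median. The mitochondrially encoded mRNAs have the highest median, 2.54. The liver plasma proteins have the lowest, -2.29, which became 1.18 over members with a mean of at least 10 FPKM.

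Of 14 members of the oocyte identity list 12 lay below their stage I level. Egg envelope genes encode the zona pellucida glycoproteins of the chorion. All 12 that passed the minimum lay below their stage I level, with a median log2 difference of -0.59, but only zp2l2, at 113 (bounds 106 to 119) and 54.5 (bounds 50 to 58.9) FPKM, passed the 2-fold rule. The most abundant, zp3a.1, stood at 3105 (bounds 2978 to 3232) FPKM at stage I and 1689.7 (bounds 1616 to 1763) at stage III. The smallest differences were those of zp2.6, at 236 and 207 FPKM, and zpcx, at 872 and 672. The summed level of the 12 was 11094 FPKM at stage I, 7974 at stage II, 7128 at stage III and 557 at stage IV. Copies of the zp2 and zp3 genes share sequence, and reads may be divided among them in more than 1 way.

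Of the 14 oocyte identity genes that passed the minimum 3 were lower (21.4%, against 6.88% over all loci) and 0 higher, with a median of -0.66. The 3 were zar1, lhx8a and gdf9. Of 5 oocyte transcription factors 0 were higher and 2 lower (40%, median -0.94). The lists share members: lhx8a is counted here again, and 36 symbols are in more than 1 list. The LIM homeobox gene lhx8a stood at 118 and 44.18 FPKM, and pou5f3, a pluripotency factor of the embryo, at 24.7 (bounds 22.7 to 26.8) and 8.61 (bounds 7.41 to 9.81). The gene nobox, which encodes a homeobox factor of the early follicle, stood at 16.7 and 8.21 FPKM and nanog at 401 and 211, both short of 2-fold. The related growth factors gdf9 and bmp15 went apart. The gene gdf9 was lower, at 33.8 (bounds 31 to 36.6) and 13.4 (bounds 11.5 to 15.2) FPKM, and bmp15 stood at 94.4 (bounds 89.1 to 99.7) and 119.6 (bounds 113 to 126), with bounds that do not overlap either. Of the 5 growth factor genes that passed the minimum, 1 was higher and 1 lower (20% each), inhbaa and gdf9. Over all loci the shares were 10.4% and 6.88%.

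Genes of the piRNA pathway, which silences transposons in the germline, had 4 lower and 0 higher members of 10, with a median of -0.89. The share of lower members was 40.0%, against 6.88% over all loci. The helicase gene tdrd9 stood at 43.1 (bounds 40.7 to 45.5) FPKM at stage I and 9.37 (bounds 8.39 to 10.3) at stage III, and the Tudor scaffold gene tdrd1 at 66.9 (bounds 61.7 to 72.1) and 18.6 (bounds 16.1 to 21.2). The PIWI protein gene piwil1 stood at 88.7 (bounds 83.3 to 94) and 28.5 (bounds 25.2 to 31.9) FPKM, with 38.4 at stage II, and its paralog piwil2 stood at 37.9 and 22.4. The gene asz1 stood at 92.7 and 36.4. The gene tdrkh, for a partner of PIWI proteins in the trimming of piRNAs, was the only one above its stage I level, at 61.8 and 83.1 FPKM.

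Of 16 germ plasm genes, 2 were lower (12.5%, against 6.88% over all loci) and 0 higher (median -0.09). These were nanos3, which encodes a translational repressor of germ cells, at 66.4 (bounds 60.8 to 72) and 18.7 (bounds 15.9 to 21.6) FPKM, and the Tudor gene tdrd6, at 79.3 and 35.6. The RNA-binding protein genes dazl and rbpms2b stood at 73.1 and 722 FPKM at stage I and at 42.7 and 696 at stage III. Of 13 meiotic prophase genes, 1 was lower (7.69%, near the share over all loci) and 0 higher, with a median of -0.11. The lower one was sycp2l, of the synaptonemal complex, at 36.1 and 14.1 FPKM.

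Among 20 maternal factors of patterning and genome activation, 6 were lower (30%, against 6.88% over all loci) and 0 higher (median -0.30). Besides pou5f3 these were the Myc gene mych, at 46.7 (bounds 43.2 to 50.2) and 10.9 (bounds 9.47 to 12.4) FPKM, the Wnt ligand gene wnt8a, at 44.6 (bounds 39.8 to 49.3) and 10.5 (bounds 8.26 to 12.7), the T-box gene eomesa, at 38.9 and 16.4, the Nodal effector gene foxh1, at 32.4 and 14.1, and the orphan receptor gene nr6a1a. For nr6a1a, at 15 (bounds 5.96 to 24.1) and 4.18 (bounds 0 to 9.01) FPKM, the bounds overlapped, and a second nr6a1a locus stood at 3.35 and 2.73. The genes sox19b, for an activator of the embryonic genome, and ybx1, for an RNA-binding protein of maternal mRNAs, stood at 47.7 and 518 FPKM at stage I and at 26.8 and 669.6 at stage III.

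In translational control and mRNA storage, 5 of 25 genes were lower (20%, against 6.88% over all loci) and 1 higher (median -0.36). The gene zar1 (chromosome 20, 23411327 to 23413852), for an RNA-binding protein that represses translation in oocytes, stood at 836 (bounds 799 to 874) FPKM at stage I, 479.5 at stage II, 159.8 (bounds 150.5 to 169) at stage III and 21.7 at stage IV. The P-body genes ddx6 and eif4enif1 stood at 23.4 and 68.7 FPKM at stage I and at 5.09 and 19.2 at stage III. The embryonic poly(A)-binding gene pabpn1l stood at 426 and 205 FPKM. The poly(A)-binding gene pabpc1b was the higher one, at 10.3 and 25.1. The libraries were made from poly(A) RNA, so fewer copies of a stored mRNA and a shorter tail on it cannot be told apart.

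Of 32 meiotic maturation genes 4 were lower (12.5%, against 6.88% over all loci) and 1 higher (median -0.13). The cyclin B gene ccnb1 (chromosome 5, 55149484 to 55153246) stood at 1742 (bounds 1689 to 1794) FPKM at stage I and 608 (bounds 583 to 633) at stage III, with 864 at stage II and 2942 at stage IV. The cyclin A gene ccna2 stood at 325 (bounds 312 to 338) and 75.3 (bounds 69 to 81.6) FPKM, and wee1, which encodes a kinase that inhibits Cdk1, at 41.1 (bounds 38.4 to 43.8) and 9.74 (bounds 8.6 to 10.9). The Cdk1-activating phosphatase gene cdc25 stood at 113 and 48.4. The separase gene espl1 was the higher one, at 15.1 and 44.6. The kinase gene mos, at 464 and 252 FPKM, and ccnb2, at 595 and 506, did not reach 2-fold. Of 29 replication licensing genes 1 was higher, the GINS subunit gene gins1 at 27.9 and 58.3 FPKM, and 0 lower, with a median of 0.10 whose sign depended on the scaling.

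The series also maps histone marks, and the genes of their writers were listed apart. Over all loci 10.4% were higher and 6.88% lower. In the H3K4 and H3K36 methyltransferase list 2 of 23 genes (8.70%) were higher and 0 lower, with a median of 0.15. The gene setd2, for the main writer of H3K36me3, stood at 10.7 (bounds 9.24 to 12.15) FPKM at stage I and 25.7 (bounds 22.8 to 28.6) at stage III, and kmt2bb, of the H3K4 family, at 1.03 and 4.01. Of 28 polycomb genes 1 (3.57%) was higher and 4 (14.3%) lower, with a median of -0.04 whose sign depended on the scaling. The lower ones include phc2b, taken at its short locus on chromosome 1 (774782 to 775204), at 11648 and 5415 FPKM. Its longer locus on chromosome 6, at 9.65 and 4.81, had a log2 difference of -0.87, short of 2-fold. The H3K27 methyltransferase gene ezh2 stood at 21.2 (bounds 19.3 to 23.1) and 4.63 (bounds 3.88 to 5.39) FPKM, the chromobox gene cbx2 at 21.3 and 8.26, the cofactor gene aebp2 at 16.1 and 6.25, and phf19, for an accessory subunit of the same complex as Ezh2, at 0.18 and 4.38. The other subunits of that complex, eed and suz12a, stood at 156 and 28.2 FPKM at stage I and at 179.5 and 36.7 at stage III.

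Histone acetylation genes had 0 higher and 1 lower of 18, with a median of -0.16, and the lower one was the bromodomain gene brd2a, at 94.8 and 39.8 FPKM. Deacetylases and corepressors had 1 higher and 1 lower of 24, with a median of 0.16. The deacetylase gene sirt2 was higher, at 3.19 and 8.27 FPKM, and the corepressor gene sin3b lower, at 13.1 and 5.44. The corepressor gene mta2 was just under the rule, at 47.8 and 96.3. In DNA methylation 0 of 12 genes were higher and 0 lower, with a median of 0.16. The maintenance methyltransferase gene dnmt1 came nearest, at 208 (bounds 199 to 217) and 386 (bounds 371 to 402) FPKM. Its partner uhrf1 was listed at 0 at every stage, I to IV, which can be a failed estimate. Of 13 histone variant genes 2 were higher and 2 lower (15.4% each, against 10.4% and 6.88% over all loci), with a median of 0.38. The gene of the damage-linked variant H2A.X, h2afx, stood at 340.4 (bounds 325 to 356) FPKM at stage I. It stood at 85.5 at stage II and 58.1 (bounds 51.9 to 64.3) at stage III. The H2A.Z-type gene h2afva stood at 461 and 182 FPKM. Its paralog h2afvb went the other way, at 354 and 460, short of 2-fold. The linker histone genes h1f0 and h1fx stood at 9.09 and 6.13 at stage I and at 24.8 and 18.6 at stage III.

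The yolk uptake and processing list had 6 higher and 0 lower members of 28, with a median of 0.34. The higher share was 21.4%, against 10.4% over all loci, where 6.88% were lower. The protease genes ctsh, ctsk, ctsd and ctsz were among the 6. The gene ctsd, for cathepsin D, which cleaves vitellogenin into yolk proteins in fish, stood at 127 (bounds 119 to 134) FPKM at stage I and 321 (bounds 305 to 337) at stage III, and ctsh at 3.67 (bounds 2.46 to 4.89) and 27.8 (bounds 24.5 to 31.2). The late endosome GTPase gene rab7 stood at 33.2 and 69.6 FPKM, the protease gene ctsk at 16 and 47.4, and lrp2a, for a large endocytic receptor, at 1.04 and 5.13. At stage IV ctsh, ctsk and lrp2a stood at 0.249, 1.04 and 0.0162 FPKM. The summed level of the whole list was 6046 FPKM at stage III and 5823 at stage IV. The part of follicle cells in these values was not tested. The lipoprotein receptor gene vldlr, the vitellogenin receptor of fish, stood at 189 (bounds 179.7 to 197) and 242 (bounds 231 to 253) FPKM, with bounds that do not overlap but a log2 difference of only 0.36.

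The proton pump that acidifies endosomes and lysosomes is built from many subunits. Of 19 subunit genes that passed the minimum 4 were higher (21.1%) and 0 lower, against 10.4% and 6.88% over all loci. Of the 19 genes 18 lay above their stage I level. The median was 0.76 against 0.11 over all loci, which is itself above 0. The gene atp6v1d stood at 16.6 (bounds 14.8 to 18.3) FPKM at stage I and 51.4 (bounds 48.3 to 54.5) at stage III, atp6v1c1b at 7.74 and 20.6, and atp6v1g1 at 78 (bounds 72.3 to 83.6) and 174 (bounds 165 to 182). The most abundant subunit gene, atp6v0ca, stood at 273 (bounds 259 to 287) and 462 (bounds 441 to 483) FPKM and did not reach 2-fold. The summed level of the list was 932 FPKM at stage I, 1082 at stage II, 1586 at stage III and 531 at stage IV.

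Genes of the secretory pathway and of protein folding in the endoplasmic reticulum had 6 lower and 1 higher members of 40, with a median of -0.22. The lower share was 15.0%, against 6.88% over all loci. The disulfide isomerase gene p4hb (chromosome 6, 19682034 to 19706928) stood at 804 (bounds 793 to 815) FPKM at stage I, 374 at stage II and 152 (bounds 147 to 157) at stage III, and pdia4 stood at 382 (bounds 366 to 397) and 117 (bounds 110.3 to 123). The transcription factor gene xbp1, of the unfolded protein response, stood at 596 (bounds 572 to 621) and 248 (bounds 237 to 259) FPKM. The translocon gene sec61a1 stood at 208 and 92.4 and the retrieval receptor gene kdelr2b at 99.7 and 38.1. The chaperone gene hspa5, for BiP, stood at 876 and 460.4 FPKM, short of 2-fold. The isomerase gene pdia2 was the higher one, at 12 and 47.096.

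Of 46 genes of the actin cytoskeleton 9 (19.6%) were higher and 4 (8.70%) lower, with a median of 0.57. Over all loci 10.4% were higher and 6.88% lower. Subunits of the Arp2/3 complex, which nucleates branched actin, were among the higher ones, with arpc1b (chromosome 3, 40803793 to 40815394) at 18.5 (bounds 16.4 to 20.7) FPKM at stage I and 89.4 (bounds 84.7 to 94.1) at stage III and its Arp2 subunit gene actr2b at 4.41 and 12.5. The subunit gene arpc5a stood at 10.6 and 31. The gelsolin-family gene flii stood at 5.79 (bounds 5.12 to 6.46) and 31.4 (bounds 29.4 to 33.4) FPKM and the actin elongation gene vasp at 14.8 and 46.1. The lower ones were actb1, the muscle actin genes acta1a and acta1b, and the tropomyosin gene tpm4b, at 7.79 and 2.47 FPKM. Of 37 microtubule and centrosome genes 3 were higher and 1 lower, with a median of 0.23, the lower one being the tubulin gene tubb4b at 4429 and 1871 FPKM. The higher ones were the centriole gene cenpj, at 3.47 and 10.7, and the gamma-tubulin ring genes tubg1, at 13.3 and 33.3, and tubgcp2, at 14 and 31.1. Of 28 gap and tight junction genes 7 (25%) were higher and 2 (7.14%) lower, with a median of 0.60. Next to cx34.5 and cdh1, the plakoglobin gene jupb was higher, at 0.54 and 8.18 FPKM, while the claudin gene cldn7b, at 136 and 39.1, and the connexin gene cx30.3, at 7.24 and 2.41, were lower.

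Immediate early and feedback genes, which respond within minutes to signals or stress, had 8 lower and 0 higher members of 46, with a median of -0.44. The lower share was 17.4%, against 6.88% over all loci. The Fos gene fosb stood at 26.9 (bounds 24.1 to 29.7) FPKM at stage I and 6.72 (bounds 5.5 to 7.94) at stage III, and fosl1a at 23.8 and 8.07. The orphan receptor gene nr4a3 stood at 4.88 and 0.7 and the cytokine feedback gene socs1a at 37 and 16.5. The abundant genes mcl1a, of the BCL2 family, and btg2, an antiproliferative gene, stood at 874 and 428 FPKM at stage I and at 466 and 230.2 at stage III, under 2-fold. Of 29 apoptosis genes 0 were higher and 1 lower, with a median of 0.06 whose sign depended on the scaling, the lower one being the mitophagy receptor gene bnip3la, at 15.48 and 6.92 FPKM. Of 24 heat shock and chaperone genes 2 were higher and 2 lower (8.33% each, near the shares over all loci), with a median of 0.15. The co-chaperone gene bag3 stood at 1.79 and 6.59 FPKM and the chaperone gene hsp90aa1.2 at 1.59 and 5.18, while dnajb1a, for an HSP40 protein, stood at 17.2 and 5.25 and the stress factor gene hsf2 at 30.6 and 7.52.

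In glycolysis 5 of 24 genes (20.8%, against 10.4% over all loci) were higher and 1 lower, with a median of 0.39. The lower one was the abundant gapdh, at 4379.9 (bounds 4196 to 4564) FPKM at stage I and 1676 (bounds 1603 to 1748) at stage III, whereas its paralog gapdhs was higher, at 44.7 (bounds 41.1 to 48.3) and 133 (bounds 127 to 139). The phosphofructokinase gene pfkpa stood at 3.05 and 11.2 FPKM. Of 26 sterol synthesis and uptake genes 5 (19.2%) were higher and 0 lower, with a median of 0.25. Among the 5, cyp51 and tm7sf2 were under 1 FPKM at stage I. They passed the minimum only through stage III, which fixed their direction. The sterol demethylase gene cyp51 stood at 0.305 and 3.08 FPKM, the isoprenoid gene idi1 at 7.35 and 22.7, the sterol reductase gene tm7sf2 at 0.722 and 3.47, and npc1, which moves cholesterol out of lysosomes, at 26.9 and 61.5. Of 30 antioxidant genes 3 were higher, near the share over all loci, and 0 lower, with a median of 0.16. The 3 were the thioredoxin gene txn, at 11.5 and 49.2 FPKM, the glutathione peroxidase gene gpx1b, at 5.93 and 18, and the peroxiredoxin gene prdx5, at 21.3 and 58.5.

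Most lists of general cell machinery held a smaller share of members past 2-fold than the 10.4% higher and 6.88% lower over all loci. Among all loci with a mean of 30 to 100 FPKM, 5.24% were higher and 5.41% lower. Of 82 cytosolic ribosomal protein genes 0 were higher and 1 lower, rplp0 at 2327 (bounds 2227 to 2427) and 1117 (bounds 1068 to 1166) FPKM, and the median was 0.22. As a share of the summed FPKM, the list went from 11.8% at stage I to 11.4% at stage III. This share leans on rps20, which alone held 25433 of the list's 91394 FPKM at stage I and 22582 of 92198 at stage III. Of the 82 genes 58 lay above their stage I level and 24 below. Translation initiation and elongation had 0 higher and 1 lower of 47 (median 0.08, with a sign that depended on the scaling), the translation repressor gene eif4ebp3 at 74.5 and 24 FPKM. The proteasome had 2 higher and 0 lower of 39 (median 0.31), which were the immune-type subunit genes psmb9a, at 5.87 and 13.8 FPKM, and psmb10, at 3.88 and 13.6. RNA polymerase II and Mediator had 3 higher and 1 lower of 61 (median 0.17), with the TFIIF gene gtf2f2a at 22.7 and 64.6, the Mediator gene med16 at 11.9 and 27.07, the TBP-like gene tbpl1 at 28.93 and 62.5 and the polymerase subunit gene polr2gl at 82.8 and 40. Splicing factors had 0 higher and 2 lower of 56 (median 0.14), snrpb at 631 and 275 and snrpa at 209 and 99. The nuclear pore and transport list had 1 higher and 4 lower of 52, with a median of -0.01 whose sign depended on the scaling. Its lower share, 7.69%, was near that over all loci. Its lamin genes went apart, lmna at 19.1 and 7.38 FPKM and lmnb2 at 4.89 and 11.3. The export gene xpo4 stood at 38.2 and 14.2 and the import gene tnpo2 at 71.9 and 32.2.

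**Figure D5:**
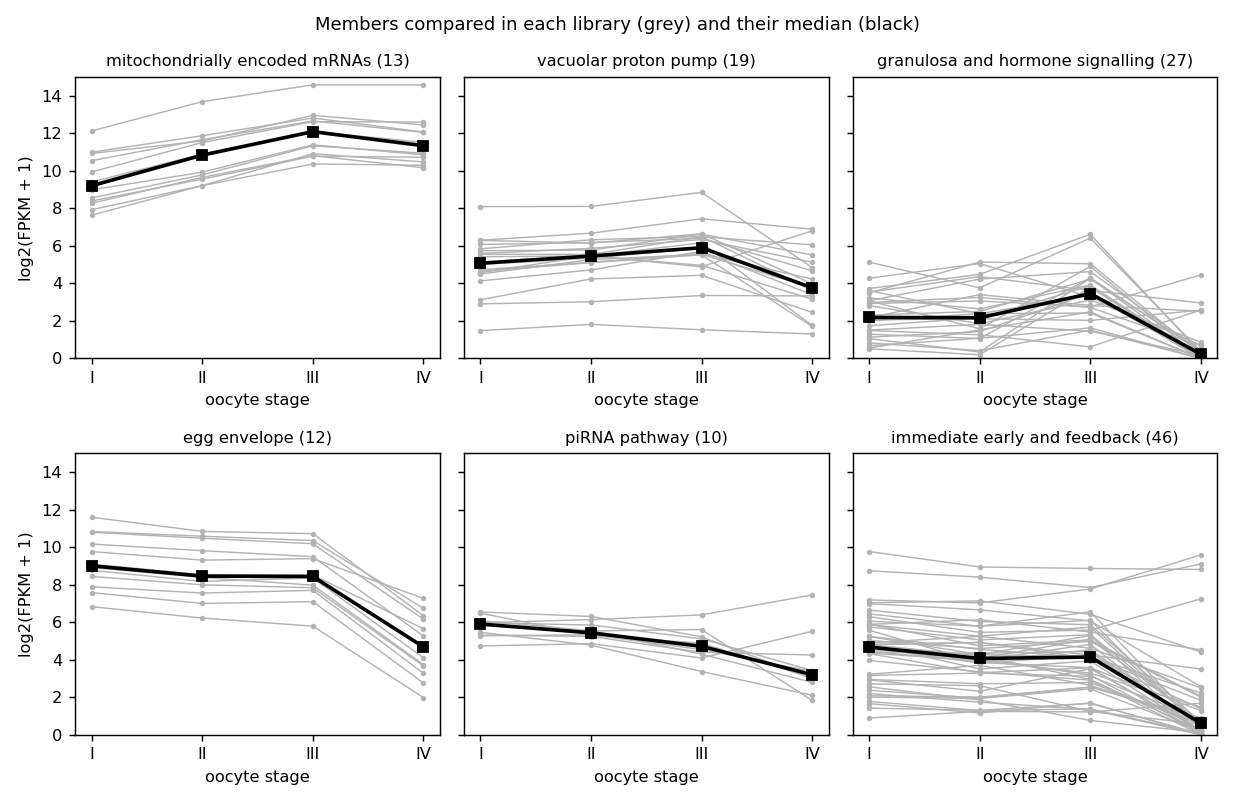
Levels of 6 gene lists in the 4 libraries, stages I to IV on the x axis and log2(FPKM + 1) on the y axis, with a grey line per member compared and the list median in black, 1 library per stage. The mitochondrially encoded mRNAs are higher at stage III than at stage I in 13 of 13 cases, and the egg envelope genes lower in 12 of 12.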

How the data were processed

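The FPKM values and their bounds were estimated per locus by the authors, and were used as deposited. Per the submitters' processing notes, the build was danRer7 (Zv9), and STAR (2.5.3a) is among the tools, with no role given. The quantification tool, the use of strand and the division of reads among copies are not given in the sources used here. Starts were made 1-based. Differences are of log2(FPKM + 1), pseudocount 1, computed with pandas 2.3.3 and numpy 2.4.6. The procedure was run on simulated data with 4-fold changes planted in well-covered loci. That run does not cover smaller changes or the spread between fish. No count of reads was given, so depth is a lower limit from the bounds, which cover estimation within 1 library. Only the oocyte RNA libraries labelled stage I to stage IV were used, and the other oocyte RNA libraries of the series were not.

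Named genes are the 15 furthest each way, among loci of over 200 bases with status OK in both libraries, bounds that do not overlap and a symbol that is not a clone name (si:, zgc:, im:, wu: or an accession with a version). Also named are the 5 most abundant loci of each library, and in each list the 3 furthest members each way past 2-fold with bounds that do not overlap, with members whose role needs it; a few are not reported here. List summaries take the locus with the highest mean where a symbol has more than 1. The 47 gene lists and the comparison were chosen with earlier results of these data known. Alternatives tried were pseudocounts of 0.1 and 5, other minimums, 3 rescalings, non-overlapping bounds and 4-fold.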

Additional observations from a re-analysis of the deposited data

How the results depend on the processing

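With a pseudocount of 5, 547 loci were higher and 436 lower, and with a mean of at least 10 FPKM 559 were higher and 514 lower. The 4-fold rule left 234 and 129, and among loci at 1 FPKM or more in stage IV, a limit chosen after seeing the data, 712 were higher and 667 lower. The other settings stayed within 1.5 times of 1514 and 999. Non-overlapping bounds left 1366 (9.41%) higher and 914 (6.29%) lower loci. Median-of-ratios scaling moved the median from 0.11 to 0.02 and gave 1279 higher and 1190 lower, so that 51.8% of loci past 2-fold were higher, against 60.2% as deposited. Leaving out members of the lists of other cell types, also added later, gave 1475 and 979. No named gene reversed, but these settings move values too little to change the sign of a difference past 2-fold. Of 1229 values of named genes under an alternative 53 fell below the 2-fold rule, 41 of them with a pseudocount of 5. List medians changed sign with at least 1 setting for oocyte growth factors, replication licensing, polycomb, translation initiation and elongation, nuclear pore and transport, endothelium, red blood cells, epithelial keratins, liver plasma proteins and apoptosis. The cause of these shifts was not tested. No paired analysis was possible because each stage has 1 library. For the same reason no library could be left out, and the spread between fish is unknown.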

Other observations

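Families read off the gene symbols, which were chosen after the values were seen and get no test, add groups outside the lists. Of 239 solute carrier loci 40 (16.7%) were higher and 20 (8.37%) lower at stage III, against 10.4% and 6.88% over all loci. Amino acid transporter genes were among the higher ones, with slc7a7 at 5.95 FPKM at stage I and 34.2 at stage III, slc43a2b at 21.1 and 75.6 and the heavy chain gene slc3a2a at 9.9 and 32.7. The iron exporter gene slc40a1 stood at 2.05 and 17.5 FPKM and the mitochondrial ornithine carrier gene slc25a15a at 1.51 and 22.4. The lower ones included genes of the slc35 family of nucleotide sugar transporters of the Golgi, such as slc35c2 at 36.7 and 16.8 FPKM, although slc35a4 and slc35d2 were higher. The monocarboxylate transporter gene slc16a3 stood at 426 (bounds 397 to 454) and 147 (bounds 132 to 162) FPKM.

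Matrix and surface families were counted too, beside 10.4% higher and 6.88% lower over all loci. Of 8 matrix metalloprotease loci 4 (50%) were higher and 0 lower, with mmp11b at 1.69 and 20 FPKM. Of 7 laminin loci 4 (57.1%) were higher and 0 lower, lama5 being at 0.854 and 10.5. Of 26 tetraspanin loci 9 (34.6%) were higher and 1 (3.85%) lower. Among the higher ones was the exosome marker gene cd63 at 74.8 and 215 FPKM. Of 18 plexin and neuropilin loci 5 were higher and 2 lower, with a median log2 difference of -0.01. The guidance receptor genes nrp2a and plxnc1 stood at 2.4 and 2.24 FPKM at stage I and at 28.89 and 25 at stage III. Of 6 loci of insulin-like growth factor binding proteins 2 were higher and 1 lower, igfbp5a at 1.89 and 23.5 FPKM and igfbp3 at 8.93 and 1.99. Of 26 kinesin loci 0 passed 2-fold in either direction. Of 84 ZNF zinc finger loci 1 was higher (1.19%, against 10.4% over all loci) and 6 were lower (7.14%, near the 6.88% over all loci).

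Apart from the mitochondrial genome, the share of higher loci ran from 7.76% of 851 loci on chromosome 5 to 13.7% of 438 on chromosome 4. The share of lower loci ran from 5.51% of 544 on chromosome 23 to 9.98% of 551 on chromosome 22.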
